A study of Arabidopsis thaliana with 4 samples.

Results

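Plant chloroplasts and mitochondria keep small genomes of their own, and transcripts of those genomes were measured in Arabidopsis thaliana seedlings that overexpress the microRNA miR396 and in wild-type seedlings. The members were chosen by number alone, as the 150 probe sets with the lowest running numbers on the Affymetrix ATH1 array, a block in which the array design placed its organelle genes. The array holds 22746 probe sets beside its 64 Affymetrix controls. A probe set is a group of short oligonucleotides on the array that together read 1 transcript, and its signal is a brightness on a linear scale.

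The array annotation paired 77 of the 150 members with a chloroplast gene and 12 with a mitochondrial gene. The block did not hold organelle genes alone: 15 members carried names of nuclear genes of chromosome 2, namely 5 loci whose names begin AT2G07 and 10 whose names begin AT2G26, the gene YAB5 among them. The AT2G07 loci lie in the part of chromosome 2 known to hold a large copy of mitochondrial DNA, so transcripts of the copy and of the mitochondrion cannot be told apart by name. The other 46 members could not be placed in a genome, 45 of them because the annotation gives no gene and 1 because it gives several. The 77 chloroplast probe sets stood for 76 different genes, since 2 probe sets read rps12, and 8 of them read a gene that has 2 copies in the inverted repeat of the plastid genome.

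Chloroplasts descend from cyanobacteria, and their genome encodes core subunits of the photosynthetic complexes, the large subunit of rubisco, and part of the machinery that transcribes and translates them, while most chloroplast proteins are encoded in the nucleus. Plastid genes stand in clusters that are transcribed together, by a bacterial-type RNA polymerase whose core is encoded in the plastid and by phage-type polymerases encoded in the nucleus. The mitochondrial genome encodes subunits of the respiratory chain and proteins that mature cytochrome c. Organelle messenger RNAs mostly lack the stable poly(A) tails of nuclear messenger RNAs. The step that primed the labelling reaction was not given in the sources used here.

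All 4 arrays held total RNA of seedlings of the ecotype Col-0, aged 10 days and raised at 23 °C in long days on Murashige-Skoog salts. In the 2 arrays labelled 35S:miR396 the microRNA is driven by 35S, a promoter from cauliflower mosaic virus that works in most plant tissues, and the other 2 arrays held wild type. miR396 is best known for directing cleavage of messenger RNAs of GRF transcription factors, which promote leaf growth. The labels do not say how many transgenic lines were used or whether seedlings were pooled. Wild type has the numbers 1b and 2, while 35S:miR396 has 1 and 2. What the number marks is not given, nor whether replicates came from separate cultures, so p-values measure only how far these samples spread, which may be technical.

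The deposited signals had array medians of 72.8 (wild type 1b), 71.3 (wild type 2), 60.5 (35S:miR396 1) and 81.3 (35S:miR396 2). Each array was therefore scaled to a median of 71.1, and all signals below are on that scale. Where 4 signals of a gene are given, those of each genotype are in the order of their numbers, with 1b or 1 first and 2 second. Differences are log2 values, and a negative difference between genotypes means a lower signal in 35S:miR396. Signals of different probe sets are not compared as amounts of RNA, since each probe set has its own response. The number of arrays limits the precision. Of 6 markers of green shoot tissue, 4 had a probe set with 1 gene, and they read from 6660 (PSBW) to 13835 (LHCB4.1) on the 4 arrays, while the root marker PYK10 read 1290 and 1192 for wild type against 1406 and 1309 for 35S:miR396. In bulk seedlings, fewer chloroplasts or cells of a kind and less RNA in each cannot be told apart.

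The organelle transcripts set 1 array apart. Of the 77 chloroplast probe sets, 54 had their highest signal on wild type 1b, against 25.3% of the 15922 probe sets tested, and 2 of the 77 had their lowest signal there. The median chloroplast difference of an array from the mean of the other 3 was 0.37 on wild type 1b and -0.17 on wild type 2, and it was -0.01 and -0.17 on 35S:miR396 1 and 2. Over all tested probe sets the same differences were 0.02, -0.0030, 0.04 and -0.04, values that the scaling to a common median holds near 0, so the chloroplast differences are relative to the whole array. Mitochondrial genes followed, with 0.32 on wild type 1b and -0.22, -0.11 and -0.23 on the other arrays, and 6 of the 9 that were tested were highest on wild type 1b. Genotype differences of the chloroplast roles and of some named genes are for this reason also given without that array.

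**Figure D1:**
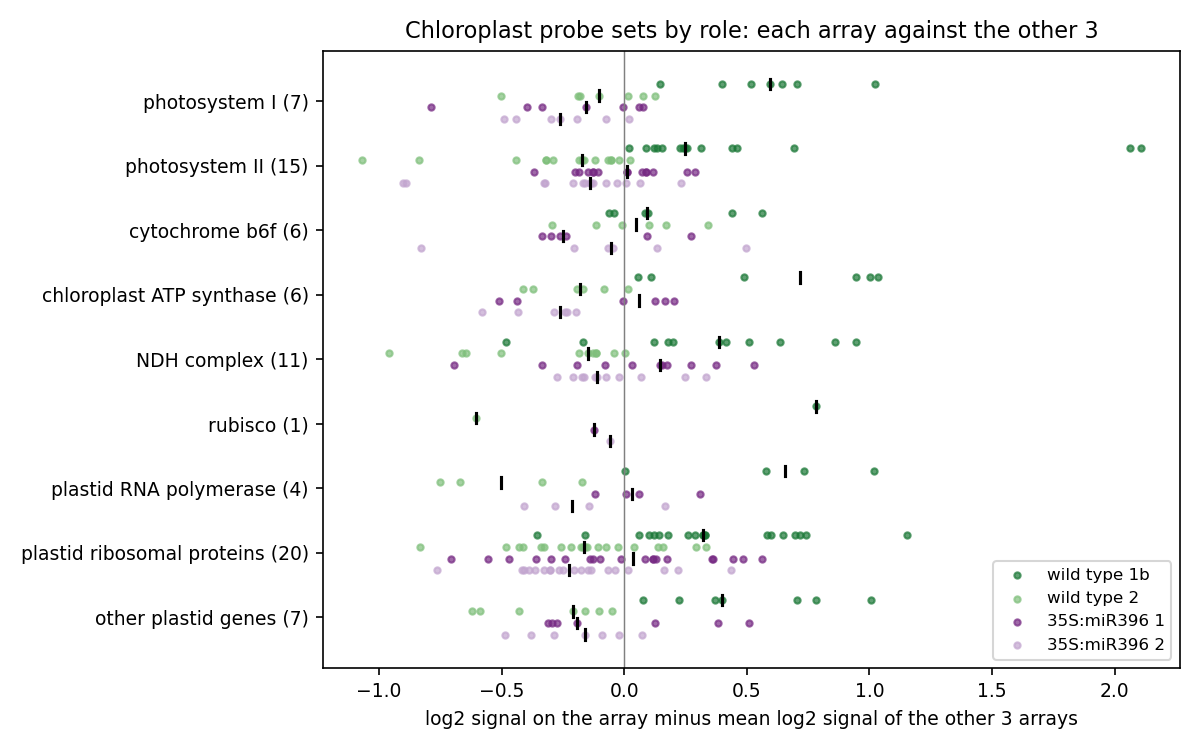
Difference of each of the 4 arrays from the mean of the other 3 (log2, x axis) for the 77 chloroplast probe sets, grouped by the role of the gene (y axis, number of probe sets in brackets). Each point is 1 probe set on 1 array, black ticks are medians, and the points of wild type 1b lie mostly above 0, with photosystem I at a median of 0.59 and the ATP synthase at 0.72.

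Between the genotypes, no member passed the test. With limma over all tested probe sets, 0 of the 117 members tested and 0.0% of the 15922 were called at the threshold of 0.05 after adjustment, the smallest adjusted p being 0.99988. At an unadjusted limma p under 0.05 there were 2 members, rpl16 and petA, against 103 probe sets in all, which is 0.647%. The fit had no block for the replicate number, so differences between numbers stayed in its error, which makes a call harder. All 77 chloroplast probe sets passed the filter on low signals, but only 9 of 12 mitochondrial, 9 of 15 nuclear and 22 of 46 unplaced ones did, so counts over members leave out 33 dim probe sets. With 2 arrays against 2 an exact permutation test of 1 gene cannot go below 0.333, because there are only 3 ways to split them.

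The chloroplast genes had a median genotype difference of -0.11, with 58 of 77 below 0 and a range from -0.95 to 0.45, while the median over all tested probe sets was -0.0035. The median log2 signal of the chloroplast genes had a standard deviation of 0.32 between arrays of 1 genotype, wider than that shift. For single chloroplast genes the median half-width of the 95% intervals was 0.62. Both 35S:miR396 arrays were below both wild-type arrays for 16 chloroplast genes, where 10.7% of all tested probe sets were. They were above both for 3, where 9.18% were. With the dimmest 60% of probe sets left out, the counts were 15 and 0, where 9.59% and 6.88% were. Set within the numbers, the median chloroplast difference was -0.33 between the arrays 1 and 1b and -0.01 between the arrays 2, against 0.01 and -0.02 over all tested probe sets. Without wild type 1b the median was 0.09, with 28 of 77 below 0, and wild type 2 alone was above both 35S:miR396 arrays for 19 chloroplast genes and below both for 31, against 31.3% and 30.2% of all tested probe sets. The direction of the chloroplast shift between the genotypes thus rested on that array.

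**Figure D2:**
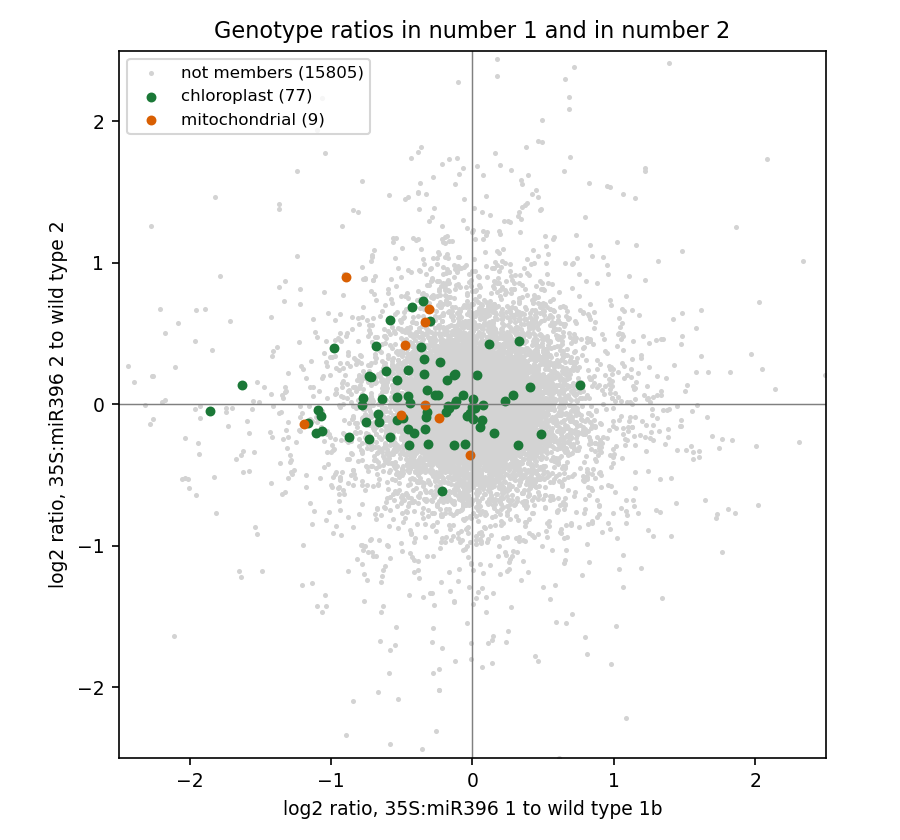
Log2 ratio of 35S:miR396 1 to wild type 1b (x axis) against that of 35S:miR396 2 to wild type 2 (y axis) for every tested probe set, with members coloured by genome and all others in grey (22 of the others lie outside the axes). Chloroplast and mitochondrial points are spread to the left of 0 along x, with medians of -0.33 and -0.34, and lie around 0 along y, with medians of -0.01 for both.

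Photosystem II splits water and passes electrons into the photosynthetic chain. Among the tested members, wild type 1b stood furthest above the mean of the other arrays for 2 of its genes, psbD and psbC, which encode the reaction centre protein D2 and the core antenna protein CP43 and are transcribed together. psbC read 5064 and 1096 for wild type against 1398 and 1061 for 35S:miR396, and psbD read 1541 and 302 for wild type against 499 and 332 for 35S:miR396. Wild type 1b was 3.62-fold above the next highest array for psbC and 3.09-fold for psbD, while the other 3 arrays lay within 1.32-fold and 1.65-fold of each other, and the genotypes overlapped for both genes. The genotype difference was -0.95 (95% interval -2.86 to 0.96) for psbC and -0.75 (95% interval -2.81 to 1.32) for psbD, and without wild type 1b it was 0.15 and 0.43.

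psbZ, which stands next to psbC in the same cluster and encodes a small photosystem II subunit, did not share this: it read 5161 and 4120 for wild type against 5178 and 3832 for 35S:miR396, with both arrays of number 1 above both of number 2. psbA, which encodes the reaction centre protein D1, read 1348 and 749 for wild type against 882 and 882 for 35S:miR396. Its signal on wild type 1b was 1.53-fold above the next array, and the 2 arrays of 35S:miR396 were alike. psbM and psbF, which encode small subunits and were the brightest probe sets of the complex, read 13587 and 12624 for wild type against 15092 and 10948 for 35S:miR396 and 7620 and 6905 for wild type against 7437 and 6512 for 35S:miR396. Neither was set apart by genotype. Over the 15 genes of photosystem II the median difference of wild type 1b from the other arrays was 0.25, and 11 were highest there. The median genotype difference was -0.09, with 12 of 15 below 0, and without wild type 1b it was 0.11, with 2 of 15 below 0. Both 35S:miR396 arrays were below both wild-type arrays for only 1 of them, psbN, where 10.7% of all tested probe sets were, with 178 and 153 for wild type against 141 and 136 for 35S:miR396.

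Photosystem I passes electrons on to ferredoxin, and all 7 of its genes, which here include the assembly factors ycf3 and ycf4, were highest on wild type 1b and had a genotype difference below 0, with a median of -0.37. Without wild type 1b the median was -0.14 and 6 of 7 stayed below 0. psaA, which encodes a reaction centre protein, read 7214 and 3836 for wild type against 3449 and 3368 for 35S:miR396. Wild type 1b stood 1.88-fold above wild type 2, the next array. The genotype difference of psaA was -0.63 (95% interval -1.46 to 0.20) and without wild type 1b -0.17. psaB, which encodes its partner in the reaction centre, read 12451 and 10198 for wild type against 9340 and 8840 for 35S:miR396, with all wild-type signals above those of 35S:miR396 and a difference of -0.31 (95% interval -0.71 to 0.084), or -0.17 without wild type 1b. ycf3 read 692 and 529 for wild type against 329 and 501 for 35S:miR396. psaJ, a small subunit, read 10064 and 9696 for wild type against 9696 and 7992 for 35S:miR396, so that wild type 2 and 35S:miR396 1 nearly met. Both 35S:miR396 arrays lay below both wild-type arrays for 5 of the 7 genes, where 10.7% of all tested probe sets were, although the interval of each of these differences held 0.

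The cytochrome b6f complex carries electrons between the photosystems and pumps protons. petA, which encodes cytochrome f, was 1 of the 2 members under an unadjusted p of 0.05. It read 5554 and 4659 for wild type against 3713 and 3970 for 35S:miR396. Both 35S:miR396 arrays were lower, the difference was -0.41 (95% interval -0.80 to -0.011), the unadjusted limma p was 0.046 and the adjusted p was 0.99988. Without wild type 1b the difference of petA was -0.28, so it kept its sign. petB, which encodes cytochrome b6, read 10812 and 9739 for wild type against 10846 and 9987 for 35S:miR396, and its difference was 0.02. Among the chloroplast roles, the 6 genes of this complex had the lowest median difference on wild type 1b, 0.09, with 2 of 6 highest there. Their median genotype difference was -0.15 with that array and -0.19 without it.

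The chloroplast ATP synthase uses the proton gradient to make ATP, and its 6 plastid genes fall into 2 clusters that differed in their signals. atpI, atpH, atpF and atpA follow rps2 in 1 cluster. atpI, which encodes a subunit of the membrane part, read 495 and 265 for wild type against 230.2 and 231 for 35S:miR396, so that the 35S:miR396 arrays were alike and wild type 1b was 1.87-fold above the next array. atpH, which encodes the ring subunit that turns in the membrane, read 4779 and 2646 for wild type against 2243 and 2579 for 35S:miR396. atpF read 4483 and 2148 for wild type against 2657 and 1969 for 35S:miR396, and atpA, which encodes the alpha subunit of the catalytic head, read 8413 and 5378 for wild type against 7111 and 5624 for 35S:miR396. All of these were highest on wild type 1b. The difference between genotypes was -0.65, -0.56, -0.44 and -0.089 in that order, and -0.20, -0.14, 0.091 and 0.23 without wild type 1b. The median over all 6 ATP synthase genes was -0.26 with that array and 0.0062 without it. Both 35S:miR396 arrays were below both wild-type arrays for only 2 of the 6, atpI and atpH, where 10.7% of all tested probe sets were.

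atpB and atpE, which encode the beta and epsilon subunits, are transcribed together from another place in the plastid genome. atpB read 15436 and 13968 for wild type against 16215 and 12914 for 35S:miR396 and atpE read 12828 and 12568 for wild type against 13308 and 11251 for 35S:miR396. Their highest signals were on 35S:miR396 1, and the difference of wild type 1b from the other arrays was 0.11 and 0.055. Within 1 enzyme, the genes of 1 cluster thus stood above the other arrays on wild type 1b by 0.49 to 1.04 and those of the other by 0.06 to 0.11. Both of the latter probe sets were among the brightest members.

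**Figure D3:**
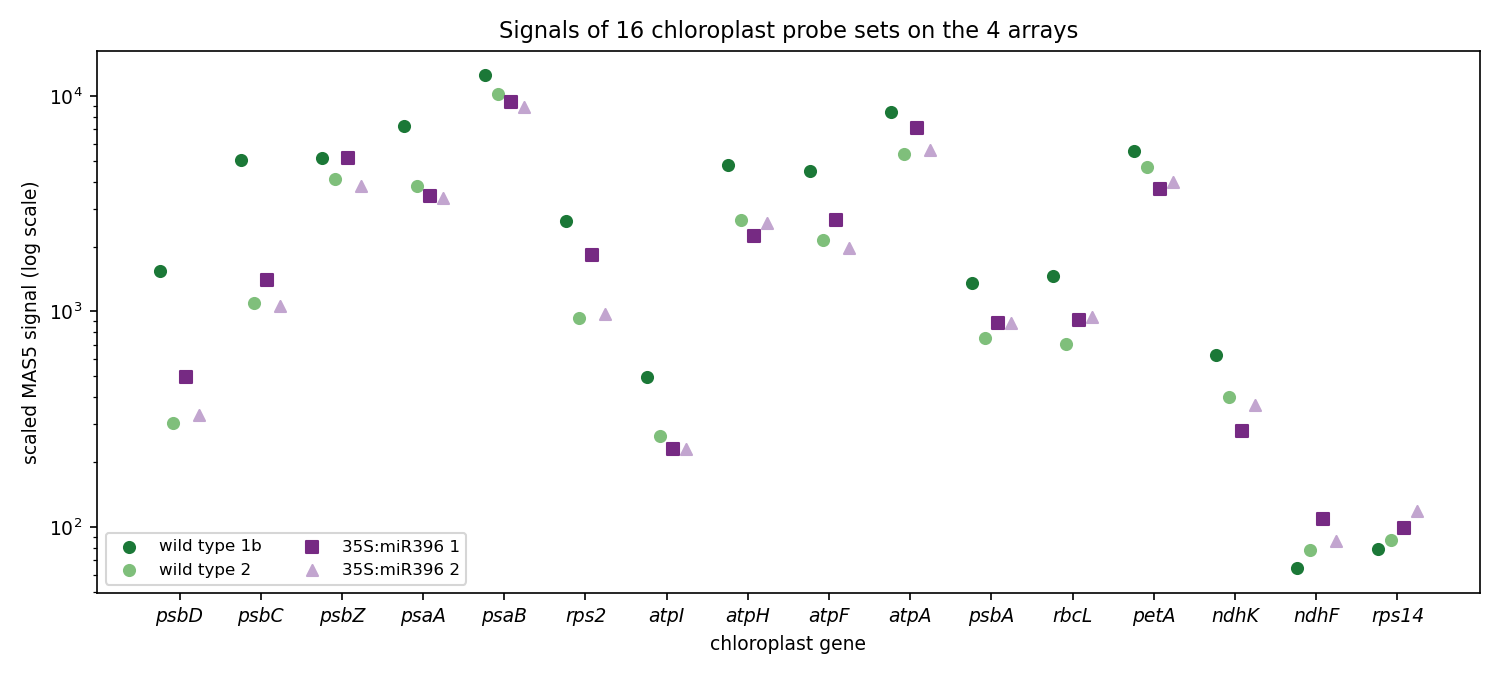
Scaled MAS5 signal (y axis, log scale) of 16 chloroplast probe sets (x axis) on each of the 4 arrays, with 1 point per array. psbD, psbC, psaA, rps2, atpI, atpH and atpF show wild type 1b above the other arrays, while psbZ, ndhF and rps14 do not.

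The chloroplast NDH complex returns electrons to the chain around photosystem I, and its 11 genes had a median genotype difference of -0.00304, which became 0.27 without wild type 1b. Their values ran in opposite directions. ndhK read 627 and 402 for wild type against 280.0 and 367 for 35S:miR396, with all wild-type signals above those of 35S:miR396 and a difference of -0.65 (95% interval -1.39 to 0.094), or -0.33 without wild type 1b. ndhF, in contrast, read 64.3 and 78.0 for wild type against 109 and 85.8 for 35S:miR396, the highest difference of any chloroplast gene at 0.45 (95% interval -0.17 to 1.07). It kept its sign without wild type 1b, at 0.31. ndhB, also higher on both 35S:miR396 arrays, read 58.6 and 58.0 for wild type against 77.5 and 63.1 for 35S:miR396. Both ndhF and ndhB were dim, with mean signals of 82.7 and 63.9, and fell out with the dimmest 60% of probe sets. ndhH read 388 and 144 for wild type against 259.8 and 218 for 35S:miR396, highest on wild type 1b and lowest on wild type 2. ndhI and ndhC, the brightest of the complex, read 10315 and 8795 for wild type against 10186 and 8428 for 35S:miR396 and 5490 and 4664 for wild type against 5036 and 4674 for 35S:miR396. Those 2 differed little between the arrays, with a highest to lowest ratio of 1.22 and 1.18.

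rbcL encodes the large subunit of rubisco, the enzyme that fixes carbon dioxide. It read 1455 and 707 for wild type against 908 and 939.6 for 35S:miR396. Wild type 1b was 1.55-fold above the next array and wild type 2 was the lowest, so the wild-type arrays lay on either side of the 35S:miR396 arrays. The genotype difference was -0.13 (95% interval -1.08 to 0.81), and 0.39 without wild type 1b.

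The plastid-encoded RNA polymerase has 4 core subunits with plastid genes. rpoB, rpoC1 and rpoC2 form 1 cluster. rpoC2 read 727 and 302 for wild type against 441 and 346 for 35S:miR396, rpoC1 read 1372 and 788 for wild type against 882 and 809.5 for 35S:miR396 and rpoB read 138 and 69.3 for wild type against 103 and 112 for 35S:miR396. All 3 were highest on wild type 1b and lowest on wild type 2. rpoA, which lies at the end of the large ribosomal protein cluster, read 5224 and 4768 for wild type against 6121 and 4843 for 35S:miR396, and its difference of wild type 1b from the other arrays was 0.0040. The genotype differences of the 4 genes ran from -0.30 to 0.13, and without wild type 1b all 4 were above 0, with a median of 0.28.

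The 20 probe sets of plastid ribosomal proteins had a median genotype difference of -0.21, with 15 below 0, and without wild type 1b 0.025, with 10 below 0. rpl16 was the other member under an unadjusted p of 0.05. It read 6580 and 4682 for wild type against 3589 and 3990 for 35S:miR396. Its difference was -0.55 (95% interval -1.09 to -0.014), the unadjusted limma p was 0.046 and the adjusted p was 0.99988, and without wild type 1b the difference was -0.31. rps2, the first gene of the ATP synthase cluster, read 2629 and 936 for wild type against 1819 and 971 for 35S:miR396, high on both arrays of number 1. rpl2 read 6339 and 7008 for wild type against 4506 and 6555 for 35S:miR396, with 35S:miR396 1 the lowest, and rpl33 read 6074 and 4940 for wild type against 4874 and 4752 for 35S:miR396. rps14 went the other way from most, with 78.7 and 86.8 for wild type against 99.0 and 119 for 35S:miR396, both 35S:miR396 arrays above wild type and a difference of 0.39 (95% interval -0.15 to 0.93), or 0.32 without wild type 1b. rps14 was dim, with a mean signal of 94.7, and fell out with the dimmest 60% of probe sets. The 2 probe sets of rps12 were both highest on wild type 1b, 1.52-fold and 1.36-fold above the next array.

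The other 7 plastid genes have roles outside these complexes. accD, which encodes a subunit of the enzyme that starts fatty acid synthesis, read 1042 and 447 for wild type against 529.8 and 589.9 for 35S:miR396, 1.77-fold higher on wild type 1b than on the next array. cemA, which encodes an envelope membrane protein, read 4865 and 3284 for wild type against 2925 and 2766 for 35S:miR396, and the genotypes did not overlap. Its difference was -0.49 (95% interval -1.07 to 0.091), and without wild type 1b -0.21. matK, which encodes an intron maturase, read 4977 and 3264 for wild type against 5402 and 4386 for 35S:miR396, and ccsA, which takes part in attaching haem to cytochromes, read 5983 and 4428 for wild type against 5267 and 4255 for 35S:miR396. For matK the order followed the number, with 35S:miR396 1 highest and wild type 2 lowest. clpP, which encodes a protease subunit, and ycf1 and ycf2 had genotype differences of -0.18, -0.26 and 0.019, and of 0.029, 0.19 and 0.086 without wild type 1b. The median of the 7 was -0.18 with that array and 0.096 without it.

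Along the plastid genome, the excess on wild type 1b changed from cluster to cluster. The median difference of wild type 1b from the other arrays was 1.00 over rps2, atpI, atpH, atpF and atpA, with all 5 highest there. It was 0.73 over rpoB, rpoC1 and rpoC2, and 0.51 over the 8 genes from ndhD to rps15, of which 7 were highest there. At the low end stood psbE, psbF, psbL and psbJ with 0.23, the 9 genes measured from rpl23 to rpoA with 0.18, psbB, psbT, psbH, petB and petD with 0.087, and atpB and atpE with 0.083. Members of 1 cluster did not always go together. In the psaA cluster psaA had 1.02, psaB 0.40 and rps14 -0.36, and in the psbD cluster psbD had 2.06, psbC 2.11 and psbZ 0.25.

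**Figure D4:**
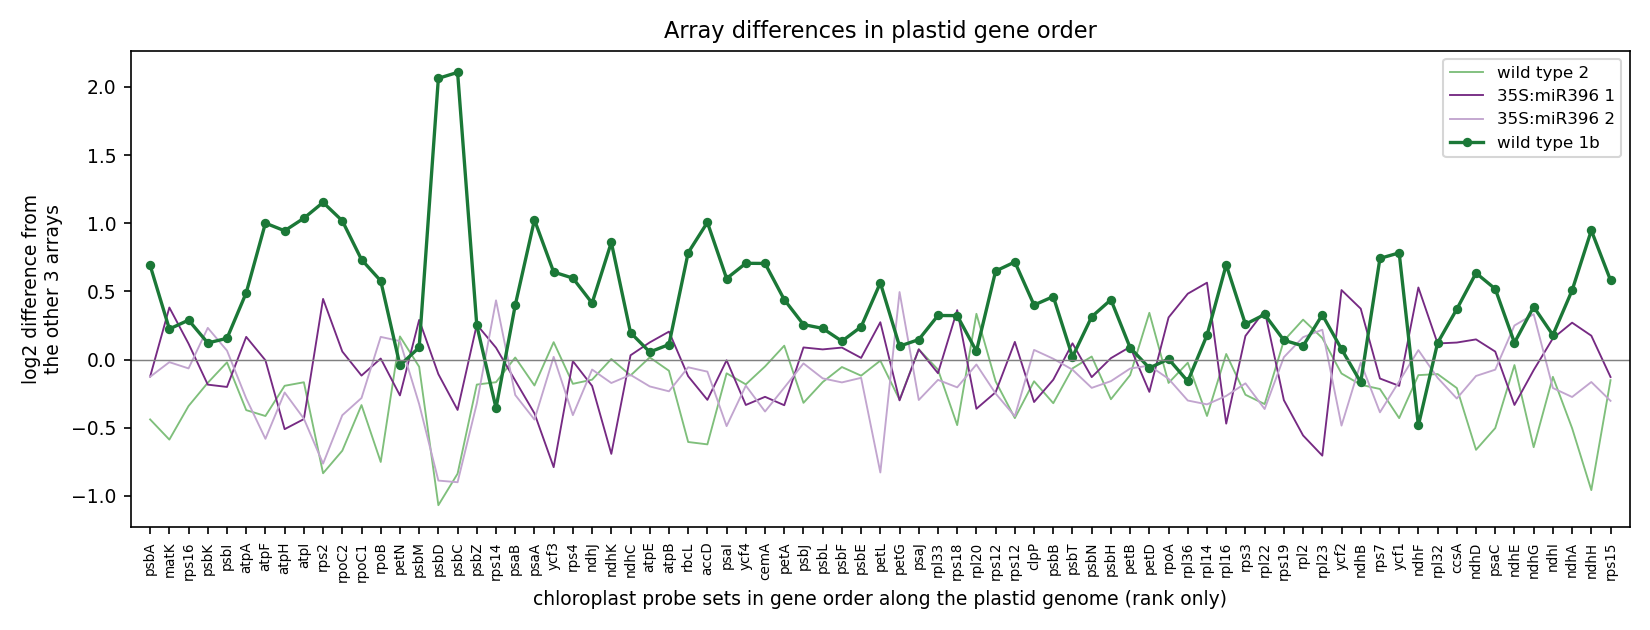
Difference of each array from the mean of the other 3 (log2, y axis) for the chloroplast probe sets in their order along the plastid genome (x axis, rank only, labelled by gene). The line of wild type 1b is highest at psbD and psbC, with 2.06 and 2.11. The cluster of rps2, atpI, atpH, atpF and atpA has a median of 1.00. Single genes elsewhere reach similar values, such as psaA and rpoC2 with 1.02 and accD with 1.01.

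Neighbouring genes were more alike on wild type 1b than genes taken anywhere in the plastid genome. Over 75 neighbouring pairs the median absolute difference between the 2 genes was 0.25, and over all 2850 pairs it was 0.36. On the other arrays the values were 0.22 and 0.25 for wild type 2, 0.26 and 0.29 for 35S:miR396 1, and 0.18 and 0.22 for 35S:miR396 2. Genes share transcripts and arrays, so these are descriptions without a test. Grouped by the polymerase that transcribes them in tobacco, the median on wild type 1b was 0.69 for 9 genes of the plastid-encoded polymerase, all 9 highest there, and 0.73 for 5 genes of the nuclear-encoded polymerase, 4 of 5 highest there. The list for the first of these holds psbC and psbD. The 2 groups were close to each other on this array.

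How far wild type 1b stood above the rest also varied with brightness. Its median difference was 0.31 for the 21 chloroplast probe sets with a mean signal under 500, 0.71 for the 17 from 500 to 2000, 0.37 for the 27 from 2000 to 5000 and 0.12 for the 12 above 5000. Those 12, with psbM, atpB, atpE and petB among them, also varied least between arrays, by a median of 1.27-fold from the lowest to the highest. Tested probe sets outside the members had 0.02, 0.01, 0.01 and 0.04 in the same classes of brightness. A loss of response near the top of the brightness scale was not tested.

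**Figure D5:**
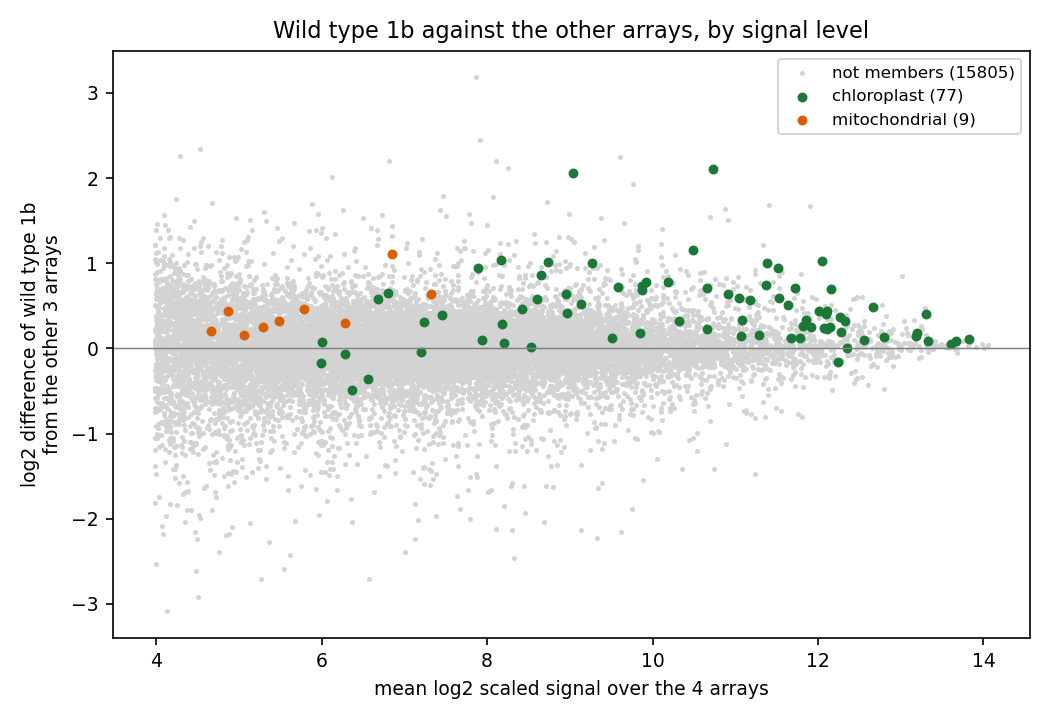
Difference of wild type 1b from the mean of the other 3 arrays (log2, y axis) against the mean log2 scaled signal over the 4 arrays (x axis) for all tested probe sets, with members coloured by genome and all others in grey. Grey points have medians near 0 at each brightness but spread widely, from -2.22 to 2.25 at mean signals from 500 to 2000. Chloroplast points of middle brightness lie mostly above 0. Of the 56 chloroplast points with a mean signal of 500 or more, 12 are at least 1.5-fold above each other array.

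Of all tested probe sets, 93 were at least 1.5-fold higher on wild type 1b than on each other array, which is 0.584%. They included 16 of the 77 chloroplast and 1 of the 9 mitochondrial genes tested, and chloroplast genes made up 17.2% of the 93. Among probe sets with a mean signal of at least 500, 12 of 56 chloroplast genes were in this class and 2 of 3160 probe sets outside the members, which is 21.4% and 0.0633%. At 2-fold, 10 probe sets were left, which is 0.0628%, and 3 of them were psbC, psbD and the mitochondrial ccb382.

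Control values of the arrays followed this pattern to different degrees or not at all. The control probe set for 25S ribosomal RNA read 188 and 73.2 for wild type against 85.7 and 65.1 for 35S:miR396, so that wild type 1b was 2.54-fold above the geometric mean of the others. That for 5S ribosomal RNA read 165, 140.0, 159 and 179 in the same order. The ratio of 3′ to 5′ signal, a measure of RNA integrity and of labelling length, was 13.5, 10.3, 13.4 and 12.0 for actin, 1.76, 1.65, 1.70 and 1.57 for GAPDH and 3.29, 3.15, 3.02 and 3.08 for ubiquitin. Each ratio was highest on wild type 1b, by 1.14-fold, 1.07-fold and 1.07-fold over the geometric mean of the others. Ribosomal RNA and organelle RNA both lack a regular poly(A) tail. The part of RNA class, RNA quality or labelling in the organelle result was not tested.

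Nuclear genes whose products work beside the organelle genes could be read only in part. From a list of 30 nuclear photosynthesis genes, 7 had a probe set with 1 gene in the annotation, and 0 of the 7 passed the genotype test. Their median difference of wild type 1b from the other arrays was 0.03, with a range from -0.11 to 0.23, and 1 of 7 was highest there. All 7 read above 5000 on every array, a class of brightness in which the chloroplast genes had a median of only 0.12, so they are no match in brightness for the chloroplast genes with the larger excess. ATPC1, the nuclear gene for the gamma subunit of the same ATP synthase, read 9020 and 9703 for wild type against 10457 and 9131 for 35S:miR396, and PSAN, a photosystem I subunit, read 9032 and 8643 for wild type against 9673 and 8355 for 35S:miR396. Neither was highest on wild type 1b. Of the 12 chloroplast probe sets with a mean signal above 5000, 6 were highest there, psaB, psaJ and ndhI among them, but not atpB and atpE. For nuclear genes of mitochondrial respiration, 5 of 11 were measured, 0 passed, 0 were highest on wild type 1b and the median difference was -0.13. Of 9 sigma factors and organelle RNA polymerases only RPOTMP, a phage-type polymerase, was measured, with 40.3 and 46.0 for wild type against 42.4 and 45.6 for 35S:miR396. No gene of the other lists, 11 proteins associated with the plastid-encoded polymerase and 16 nuclear plastid ribosomal proteins, had a probe set with 1 gene.

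The mitochondrial members were dim, and 3 of the 12, ccb203, nad7 and matR, fell below the filter. ccb382, which takes part in cytochrome c maturation, read 206 and 103 for wild type against 90.2 and 93.6 for 35S:miR396. Wild type 1b was 2.00-fold above wild type 2, and the other 3 arrays lay within 1.14-fold of each other. Its genotype difference was -0.66 (95% interval -1.62 to 0.29), and without wild type 1b -0.16. nad4, a subunit of respiratory complex I, read 224 and 141 for wild type against 158 and 134 for 35S:miR396, and nad9, another one, read 52.9 and 42.4 for wild type against 45.0 and 39.7 for 35S:miR396. Both were highest on wild type 1b and had the genotypes overlapping.

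cox2, a subunit of cytochrome c oxidase, read 36.3 and 28.3 for wild type against 28.8 and 42.3 for 35S:miR396, and ccb452, of cytochrome c maturation, read 91.2 and 58.9 for wild type against 73.7 and 94.0 for 35S:miR396. Both were highest on 35S:miR396 2. nad6 had the widest spread among the 9 tested, with 28.2 and 22.7 for wild type against 15.2 and 42.5 for 35S:miR396, so that the 35S:miR396 arrays lay on either side of wild type. orfX read 69.9 and 44.3 for wild type against 50.2 and 59.1 for 35S:miR396, and matR, an intron maturase, read 1.37 and 13.4 for wild type against 2.82 and 1.40 for 35S:miR396 with values near the background of the array. Over the 9 tested mitochondrial genes the median genotype difference was -0.16, 6 of 9 were below 0 and the groups did not overlap for 1, ccb382, where 10.7% of all tested probe sets were lower and 9.18% higher in 35S:miR396 without overlap. Within number 1 it was -0.34 and within number 2 -0.01, and without wild type 1b it was 0.08.

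Between the replicate numbers, organelle signals were lower on the arrays numbered 2. The median difference, number 2 minus number 1, was -0.28 for chloroplast genes and -0.25 for mitochondrial genes, against -0.04 for all tested probe sets. Both arrays numbered 2 were below both numbered 1 for 41 chloroplast genes, where 34.1% of all tested probe sets were, and above both for 3, where 27.0% were. The difference was larger within wild type, where the chloroplast median was -0.43 and the mitochondrial median -0.50. Within 35S:miR396 the medians were -0.12 and 0.05, against -0.02 and -0.06 over all tested probe sets in the 2 genotypes. Without wild type 1b the difference by number was -0.14 for chloroplast and 0.015 for mitochondrial genes.

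The chloroplast genes with the largest differences by number were psbD with -1.47, psbC with -1.30, rps2 with -1.20, ndhH with -0.84 and rpoC2 with -0.81. For psbD the difference was -2.35 in wild type and -0.59 in 35S:miR396. rps2 was closer in the genotypes, with -1.49 and -0.91. In the other direction, rpl2 differed by 0.34 and nad6 by 0.59. No member differed 2-fold or more across the 4 pairs of arrays, where 1.25% of all tested probe sets were 2-fold lower and 1.63% were 2-fold higher on the arrays numbered 2.

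The 15 nuclear members did not form a group. AT2G07751 read 295 and 182 for wild type against 137 and 173 for 35S:miR396 and AT2G07708 read 79.0 and 46.5 for wild type against 35.8 and 44.0 for 35S:miR396, both at least 1.5-fold above every other array on wild type 1b. AT2G07674 read 44.1 and 44.3 for wild type against 33.0 and 27.6 for 35S:miR396, so that the genotypes were apart and wild type 1b did not stand out. AT2G07776 read 18.7 and 20.1 for wild type against 26.3 and 31.9 for 35S:miR396, with both 35S:miR396 arrays higher, and its difference was 0.58 (95% interval -0.25 to 1.40). The 4 tested AT2G07 loci had a median genotype difference of -0.57, and -0.23 without wild type 1b. The tested AT2G26 loci had a median difference of wild type 1b from the other arrays of -0.05. Of these, YAB5, a transcription factor gene of leaf development, read 259.8 and 352 for wild type against 247 and 269 for 35S:miR396, and AT2G26600 read 205 and 186 for wild type against 250.1 and 206 for 35S:miR396. AR781 had the highest difference by number of all tested members, 1.10, with 345 and 984 for wild type against 448 and 718 for 35S:miR396, higher on both arrays numbered 2.

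Among the 22 tested members without a placed gene, wild type 1b was highest for 7 and the median difference from the other arrays was 0.10. The probe sets 244921_s_at and 244903_at followed the organelle pattern, with 179 and 104 for wild type against 104 and 101 for 35S:miR396 and with 87.0 and 41.1 for wild type against 50.6 and 41.4 for 35S:miR396. The probe set 244923_s_at read 37.2 and 20.4 for wild type against 9.52 and 25.9 for 35S:miR396. Both 35S:miR396 arrays were above both wild-type arrays for 4 of the 22, where 9.18% of all tested probe sets were. They were below both for 1, where 10.7% were. Among the 4, 244957_at read 20.1 and 15.0 for wild type against 33.1 and 23.1 for 35S:miR396. 244990_s_at read 67.9 and 49.9 for wild type against 77.3 and 80.9 for 35S:miR396. The difference between genotypes was 0.67 and 0.44 for these and 0.40 for 244924_at, and none passed the test. All of these were named for their high moderated t, and 244957_at and 244924_at were dim, with mean signals of 21.9 and 30.9. The probe set 245046_at was higher on both arrays numbered 2, with 439 and 566 for wild type against 357 and 570.2 for 35S:miR396. Over all 117 tested members, both 35S:miR396 arrays were below both wild-type arrays for 22, where 10.7% of all tested probe sets were, and above both for 9, where 9.18% were. On deposited signals the 22 were 13, where 8.10% of all tested probe sets were, and the 9 were 5, where 4.71% were. The 24 of these unplaced members that were below the filter had mean signals of 15.1 or less.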

How the data were processed

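Per the labels' protocols, RNA came from a column kit for plants and carried a biotin label. Deposited intensity values, 1 per probe set and linear, were computed by the authors in MAS5, per the submitters' processing notes. The sources used here do not give its version, scaling target or detection calls. MAS5 subtracts local background, so log2 values of dim probe sets are imprecise.

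The 64 Affymetrix controls were removed, and each array was scaled to a common median (71.1) over the other 22746 probe sets. Before log2, 6 values at or below 0 were raised to the smallest positive value, 0.0874. The dimmest 30% of probe sets by mean log2 signal were left out, and 15922 with mean signals from 15.8 upwards stayed. The genotype comparison used limma 3.58.1 under R 4.3.3 (lmFit and eBayes with a trend, two-sided, no block, Benjamini-Hochberg over all tested probe sets, threshold 0.05). Replicate numbers and wild type 1b were described without a test. The script was tested on simulated data. Tables and figures used Python 3.11.15, pandas 2.3.3, numpy 2.4.6 and matplotlib 3.10.9.

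Groups came from the sample titles. Gene names came from the platform annotation, in which 13513 probe sets have 1 symbol, 503 several and 8730 none. RefSeq names of TAIR10.1 gave plastid gene order and loci (83 plastid loci matched), and no coordinates were printed, since the files name no build. The members, gene lists, clusters and tests were chosen with earlier results of these data known, so none is independent evidence. The rule for named genes takes the 2 brightest members of each role, the 8 highest and 8 lowest by moderated t, and the 5 most apart in each direction by replicate number. psaA, psbA, psbN, psbZ, atpA, atpF, atpH, accD, rpoB, clpP, ycf1, ycf2, ycf4, rps12, YAB5, ccb203, nad7, AT2G07708, AT2G07751, 244903_at and 244921_s_at were chosen after their values were seen, as were the counts on wild type 1b. Alternatives were other scalings, filters, a pseudocount of 16, other eBayes settings, each array left out and a replicate block.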

Additional observations from a re-analysis of the deposited data

How the results depend on the processing

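Under every alternative run except the replicate block, limma called 0 probe sets in all and 0 members between the genotypes, with 33 to 440 probe sets at an unadjusted p under 0.05. The replicate block called 18 probe sets (5 higher and 13 lower in 35S:miR396), 0 of them members. At an unadjusted limma p under 0.05 there were 902 of 15922 probe sets and 28 of 117 members, a larger share of the members. The labels do not say that numbers pair arrays, and with 2 pairs the data cannot settle what a number marks. Number differences in the 2 genotypes correlated with Pearson's r of 0.627 over all tested probe sets. Over the 77 chloroplast ones r was 0.263, and 0.186 over 75, without psbC and psbD. The standard deviation over all tested probe sets was 0.58 and 0.57 for number differences within wild type and 35S:miR396. For genotype differences within numbers 1 and 2 it was 0.36 and 0.35. Arrays of 1 number were thus more alike than arrays of 1 genotype, and the main fit, without a block, keeps that spread in its error. Leaving out 1 array in turn gave median genotype differences of -0.36 to 0.086 for chloroplast and -0.30 to 0.078 for mitochondrial genes, above 0 in both cases only without wild type 1b. The 31 members whose genotypes do not overlap were 18 on deposited signals and 18 with the lowest 60% left out. That filter also tests fewer probe sets, with 85 members among them. Of its 18, 16 were lower and 2 higher in 35S:miR396, where 9.59% and 6.88% of all tested probe sets were. With 1 array left out they were 68 to 85 of 117 to 120 tested members, where 2 pairs of arrays decide in place of 4. In those fits 27 to 73 members were lower, where 27.96% to 33.6% of all tested probe sets were. Higher were 12 to 46 members, where 24.4% to 33.5% of all tested probe sets were. Under deposited signals the median difference by number was -0.082 for chloroplast and -0.053 for mitochondrial genes, beside a shift of 0.16 over all tested probe sets, so relative to it they stayed lower. The mitochondrial value was -0.45 with the lowest 60% left out, and -0.37 to 0.015 with 1 array left out, the highest without wild type 1b. For members 2-fold apart by number, the share of all tested probe sets was not counted under the alternatives. These members were 1 on deposited signals, 4 without a filter and 0 to 8 with 1 array left out, the 8 without 35S:miR396 1. A genotype left with 1 array is assumed there to vary like the other. Of the 66 named members tested, 2 moved by more than the spread between replicates with a pseudocount of 16, and the sign of the genotype difference turned for 23 when wild type 1b was left out, 10 when wild type 2 was, and 7 and 11 when 35S:miR396 1 or 2 was. The excess on wild type 1b ranged from 0.30 to 0.42 over the scalings, filters and the pseudocount, with 49 to 57 chloroplast genes highest there. The number of arrays and signals near background limit what could be called.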
